A study of Mus musculus with 2 samples.

Results

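Matrix metalloproteinase (MMP) genes and the genes of their tissue inhibitors (TIMPs) were followed in cultures of myeloid-derived suppressor cells (MDSCs) grown from mouse bone marrow, a class of immature myeloid cells that can hold back T cells. The members were the 10 rows of the deposited count table, out of 54751, named Mmp2, Mmp8, Mmp9, Mmp12, Mmp13, Mmp14, Mmp19, Mmp25, Timp1 and Timp2. They were chosen by gene family and by their counts and ratios in these same libraries, so their differences are described and not tested. Wild-type (WT) marrow cells were given vehicle (control) or mrWNT2, a form of the secreted WNT ligand WNT2, on day 0 and day 3, and RNA was taken from both cultures on day 6. Each group had 1 library, of 13474453 counts for control and 12621110 for mrWNT2. The sources used here do not state the mouse strain, age, number of animals or dose of mrWNT2. The comparison asked how this ligand alters gene expression in the cells.

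MMPs are zinc-dependent proteases that cut collagens, elastin, basement membrane and many cell-surface or secreted proteins. Most are secreted as proenzymes, held inactive by a propeptide, and the TIMPs block the active site of the mature enzymes. Myeloid cells are a main source of several of them: neutrophils store MMP8 and MMP9 in granules, and macrophages secrete MMP12.

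In the mrWNT2 library the transcripts of the gelatinase gene Mmp2 and of Mmp14, whose membrane-bound product activates the MMP2 proenzyme, were 30.3-fold and 3.17-fold higher. The other gelatinase gene, Mmp9, was 1.98-fold lower, the elastase gene Mmp12 1.65-fold lower and the leukocyte membrane protease gene Mmp25 1.5-fold lower. Mmp8, by far the most abundant of the family, was nearly level between the libraries. Of the inhibitors, Timp1 was lower at very low counts, and Timp2 differed by 1.18-fold. Ratios are of counts scaled to library size with TMM factors, given as CPM (the count scaled to a common library size), and levels of different genes are compared by the authors' FPKM, which also divides by gene length. Every interval is an exact 95% interval, covers counting error only, and rests on 2 libraries without replicates. The intervals are binomial (Clopper-Pearson), except those on the change in MMP counts per TIMP count, which are exact conditional intervals. In bulk RNA, fewer cells of a type and less RNA per cell cannot be told apart.

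All 10 members had a mean of at least 1 CPM over both libraries, Timp1 only through its control value. Among the 8 MMP genes, 2 were higher by 1.5-fold or more in the mrWNT2 library, 3 were lower by that size and 3 lay between. Of all 12856 genes at that mean, 7.62% were higher by that size and 7.02% lower. At 2-fold, 2 of the 10 members were higher and 1, Timp1, was lower, against 3.38% and 2.49% of all measured genes. Mmp9, at a log2 ratio of -0.99, lay just short of 2-fold and passed it with DESeq2 size factors (-1.02). The median log2 ratio was -0.13 over the 8 MMP genes, -0.22 over all 10 members and 0.02 over all measured genes. Mmp25 lay just past 1.5-fold and Mmp13, at 1.45-fold higher, just short of it.

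**Figure D1:**
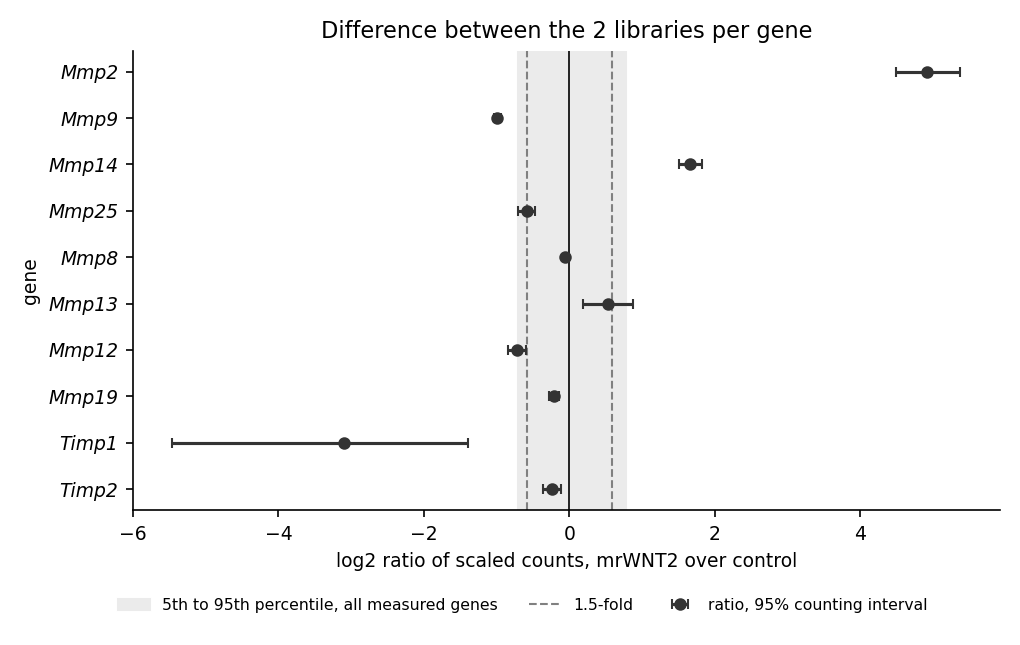
Log2 ratio of scaled counts, mrWNT2 over control, for each of the 10 genes (points, 1 library per group), with 95% counting intervals as bars, 1.5-fold as dashed lines and the 5th to 95th percentile of all measured genes (-0.71 to 0.78) shaded. Mmp2 at 4.92 and Mmp14 at 1.67 lie right of the shaded range, while Timp1, Mmp9 and, just outside it at -0.72, Mmp12 lie left of it.

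The genes lie on 8 chromosomes, and promoter sequences are shown here for the neighbours on chromosome 9, whose members went in different directions, and for Mmp14, which was higher. RefSeq's table (GRCm38.p6) held a start for 7 of the 10 members, not for Mmp2, Mmp9 and Mmp19, and 8 starts in all, since Mmp12 has a pair. The first start of Mmp12 lies 16 bases from the gene's start in the count table. The second lies 2993 bases from it, so its window falls within the gene. Each sequence below is the 250 bases before the start, on the gene's own strand, which is the plus strand for all 5. They cover chr9:7272264-7272513 for Mmp13, chr9:7344147-7344396 and chr9:7347124-7347373 for the first and second start of Mmp12, chr9:7558179-7558428 for Mmp8 and chr14:54431348-54431597 for Mmp14. Capitals mark matches to an AP-1 motif (TGANTCA) or a C/EBP motif (TTGCNNAA), searched on both strands.
Mmp13: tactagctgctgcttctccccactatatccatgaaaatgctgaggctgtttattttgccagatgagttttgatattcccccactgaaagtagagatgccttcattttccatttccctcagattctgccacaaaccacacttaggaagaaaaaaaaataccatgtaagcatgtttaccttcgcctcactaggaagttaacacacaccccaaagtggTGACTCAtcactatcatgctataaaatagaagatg
Mmp12, first start: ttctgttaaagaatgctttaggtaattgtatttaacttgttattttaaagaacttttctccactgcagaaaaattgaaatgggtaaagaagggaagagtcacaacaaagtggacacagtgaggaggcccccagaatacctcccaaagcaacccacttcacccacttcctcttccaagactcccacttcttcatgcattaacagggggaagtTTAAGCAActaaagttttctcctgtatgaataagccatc
Mmp12, second start: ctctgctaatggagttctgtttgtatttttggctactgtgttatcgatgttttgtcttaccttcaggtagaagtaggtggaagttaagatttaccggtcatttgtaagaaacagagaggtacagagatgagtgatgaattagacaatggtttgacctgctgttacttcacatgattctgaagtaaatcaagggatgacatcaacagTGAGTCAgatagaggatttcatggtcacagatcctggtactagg
Mmp8: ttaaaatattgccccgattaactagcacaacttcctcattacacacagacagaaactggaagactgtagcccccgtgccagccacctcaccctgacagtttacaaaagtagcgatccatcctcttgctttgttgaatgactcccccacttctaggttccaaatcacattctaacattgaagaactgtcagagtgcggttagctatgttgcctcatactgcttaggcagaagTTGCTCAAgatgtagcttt
Mmp14: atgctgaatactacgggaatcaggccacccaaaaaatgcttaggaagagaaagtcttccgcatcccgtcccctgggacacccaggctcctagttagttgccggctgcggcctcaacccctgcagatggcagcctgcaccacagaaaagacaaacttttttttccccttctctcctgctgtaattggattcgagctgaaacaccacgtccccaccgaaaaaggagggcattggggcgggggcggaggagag

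The AP-1 match began 35 bases before the start of Mmp13 and 44 bases before the second start of Mmp12. The C/EBP match began 39 bases before the first start of Mmp12 and 19 bases before that of Mmp8. These letters occurred in 6.75% (AP-1) and 9.56% (C/EBP) of all 32851 tabulated windows of the same length. Canonical WNT signalling is known to act through TCF/LEF sites, of which only the form CTTTGAT was searched. Other forms of the site were not counted, and Mmp2, Mmp9 and Mmp19 had no window. The form CTTTGAT occurred in 3.21% of all windows and, at so few windows, its absence from all 8 windows of the members says little about them. An NF-kB motif, found in 3.90% of windows, matched the Mmp25 window alone among the members' windows. No matches overlapped within the members' windows, and a match describes the letters and not binding.

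The gelatinases MMP2 and MMP9 cut denatured collagen and the type IV collagen of basement membranes. Mmp2 (ENSMUSG00000031740, chr8:92827291-92853420, GRCm38) had 46 counts (3.44 CPM) in control and 1327 counts (104 CPM) in mrWNT2, a 30.3-fold ratio with an interval of 22.6 to 41.6. Its FPKM went from 1.03 to 30.6, or from rank 11578 to rank 1541 of all genes by FPKM. Mmp2 was thus barely measured in control and well expressed in the mrWNT2 library. Mmp9 (ENSMUSG00000017737, chr2:164940780-164955850) went the other way, with 12290 counts (919 CPM) in control and 5892 (463 CPM) in mrWNT2, 1.98-fold lower (1.92 to 2.05). Even so, Mmp9 remained the more abundant gelatinase transcript. By FPKM, Mmp9 was at 254 times the level of Mmp2 in control and at 4.23 times in mrWNT2.

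MMP14 is the transmembrane MMP that cleaves the MMP2 proenzyme at the cell surface, with TIMP2 serving as the bridge that holds the proenzyme to it. MMP25 is a leukocyte MMP tethered by a lipid anchor. Mmp14 (ENSMUSG00000000957, chr14:54431612-54445364) had 423 counts (31.6 CPM) in control and 1277 (100.4 CPM) in mrWNT2, 3.17-fold higher (2.84 to 3.55). Mmp25 (ENSMUSG00000023903, chr17:23628311-23645277) had 1568 counts (117 CPM) and 993 (78.1 CPM), 1.5-fold lower (1.39 to 1.63). The membrane-bound members therefore lay on opposite sides, and their order by FPKM was reversed: 5.37 for Mmp14 and 22.4 for Mmp25 in control, 16.7 and 14.6 in mrWNT2. The lower value of Mmp25 was short of 1.5-fold when counts were scaled by library totals alone (log2 ratio -0.56).

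The components of the MMP2 activation complex did not shift together. Timp2 (ENSMUSG00000017466, chr11:118301069-118355740) had 1275 counts (95.3 CPM) in control and 1029 (80.9 CPM) in mrWNT2, 1.18-fold lower (1.08 to 1.28). Per unit of Timp2 FPKM, Mmp2 stood at 0.0417 in control and 1.49 in mrWNT2. The same ratio for Mmp14 was 0.217 in control and 0.811 in mrWNT2. The enzyme transcripts were therefore each nearer to or above the inhibitor's level in the mrWNT2 library.

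By FPKM, the members ranked from highest to lowest in control were Mmp8, Mmp9, Mmp19, Timp2, Mmp25, Mmp12, Mmp14, Mmp13, Timp1 and Mmp2. In mrWNT2 the order was Mmp8, Mmp9, Mmp19, Mmp2, Timp2, Mmp14, Mmp25, Mmp12, Mmp13 and Timp1. The top 3 places were held by the same genes in both libraries, and Mmp2 moved from the last place to the fourth. Without replicates, neighbours in either order cannot be set against a spread between cultures.

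**Figure D2:**
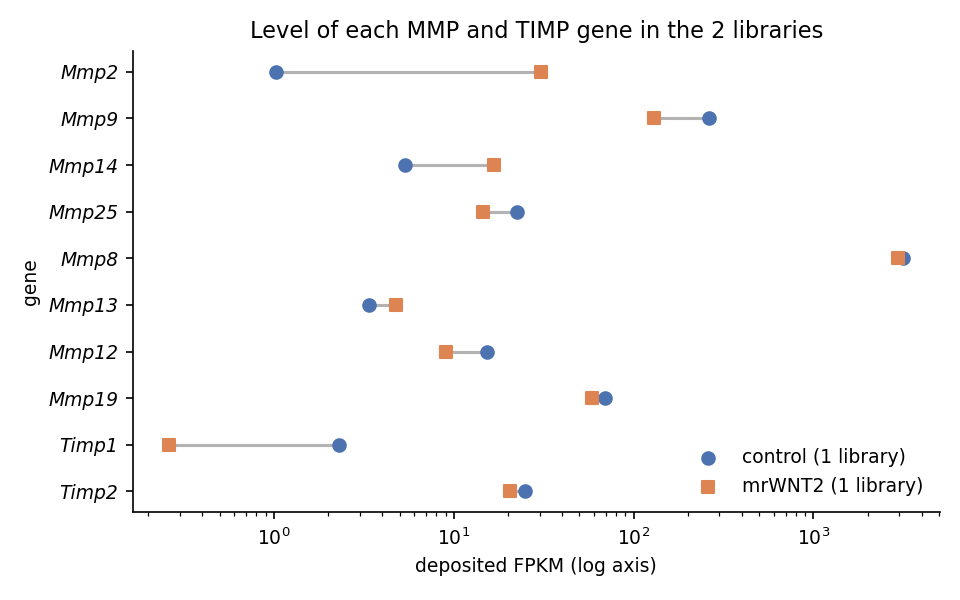
Deposited FPKM (log axis) of each gene in the control library (circles) and the mrWNT2 library (squares), with a line joining the pair. Mmp8 stands highest in both libraries (3149 and 2960), and Mmp2 crosses from 1.03 to 30.6 while Mmp9 stays above it at 263 and 129.

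MMP8 and MMP13 are collagenases, which cut the intact triple helix of fibrillar collagens, and MMP8 is the form stored in neutrophil granules. Mmp8 (ENSMUSG00000005800, chr9:7558456-7568485) had 100942 counts (7548 CPM) in control and 92359 (7263 CPM) in mrWNT2, 1.04-fold lower (1.03 to 1.05). It took 0.749% of all counts in control and 0.732% in mrWNT2, and ranked 11 and 10 among all genes by FPKM. Mmp13 (ENSMUSG00000050578, chr9:7272514-7283331) was weakly expressed, with 120 counts (8.97 CPM) in control and 165 (12.97 CPM) in mrWNT2, 1.45-fold higher (1.14 to 1.84). The collagenase transcripts were thus dominated by Mmp8 in both libraries.

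MMP12 is the macrophage elastase, and MMP19 a secreted MMP that cuts basement membrane proteins. Mmp12 (ENSMUSG00000049723, chr9:7344381-7369499) had 1463 counts (109 CPM) in control and 842 (66.2 CPM) in mrWNT2, 1.65-fold lower (1.52 to 1.80). Mmp19 (ENSMUSG00000025355, chr10:128790910-128800824) had 3239 counts (242 CPM) and 2663 (209 CPM), 1.16-fold lower (1.10 to 1.22). Mmp19 was the third most abundant MMP by FPKM in both libraries, at 69.4 and 58.6.

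TIMP1 is the inhibitor that also binds the MMP9 proenzyme. Timp1 (ENSMUSG00000001131, chrX:20870166-20874735) was close to the limit of detection, with 27 counts (2.02 CPM) in control and 3 (0.236 CPM) in mrWNT2. The ratio was 8.56-fold lower, with a wide interval of 2.63 to 44.1. With log2(FPKM + 1), which damps low values, its log2 ratio was -1.39 in place of -3.10. Timp1 lies within Syn1, a gene on the opposite strand with 41 and 26 counts, and the sources used here do not say whether the counting used strand. Timp2 carried nearly all of the inhibitor transcripts, at 10.8 times the FPKM of Timp1 in control and 78.2 times in mrWNT2. Rows overlapping the other members had 0 counts or few: 94 and 96 for Tmem198b over Mmp19, 15 and 5 for a pseudogene over Mmp25, and 7 and 3 for Cep295nl over Timp2.

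Summed over the 8 genes, MMP counts were 1.08-fold lower in the mrWNT2 library (1.07 to 1.09), at 8980 CPM in control and 8298 CPM in mrWNT2. There were 92.2 MMP counts per TIMP count in control (87.3 to 97.5) and 102 in mrWNT2 (96.2 to 109), a ratio 1.11-fold higher (exact conditional interval 1.02 to 1.20). TIMP counts here are those of Timp1 and Timp2 only. Timp3, which is not among the members, had 73 counts in control and 112 in mrWNT2, and the ratio was not computed with it. The higher ratio also rested on Mmp8. Without it, the ratio was 14.7 in control and 12.8 in mrWNT2, 1.15-fold lower (1.06 to 1.26). For the 5 genes other than Mmp8, Mmp9 and Mmp25, it was 4.06 in control and 6.08 in mrWNT2, 1.5-fold higher (1.37 to 1.64).

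The makeup of the pool differed more than its size. Mmp8 made up 84.1% of MMP counts in control (83.8% to 84.3%) and 87.5% in mrWNT2 (87.3% to 87.7%). Among the other 7 genes, Mmp9 held 69.2% of the summed FPKM in control and 49.1% in mrWNT2. Mmp2 went from 0.272%, the lowest of the 7, to 11.6%, the third place after Mmp9 and Mmp19. Mmp14 went from 1.41% to 6.32%, and Mmp19 from 18.3% to 22.2%.

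**Figure D3:**
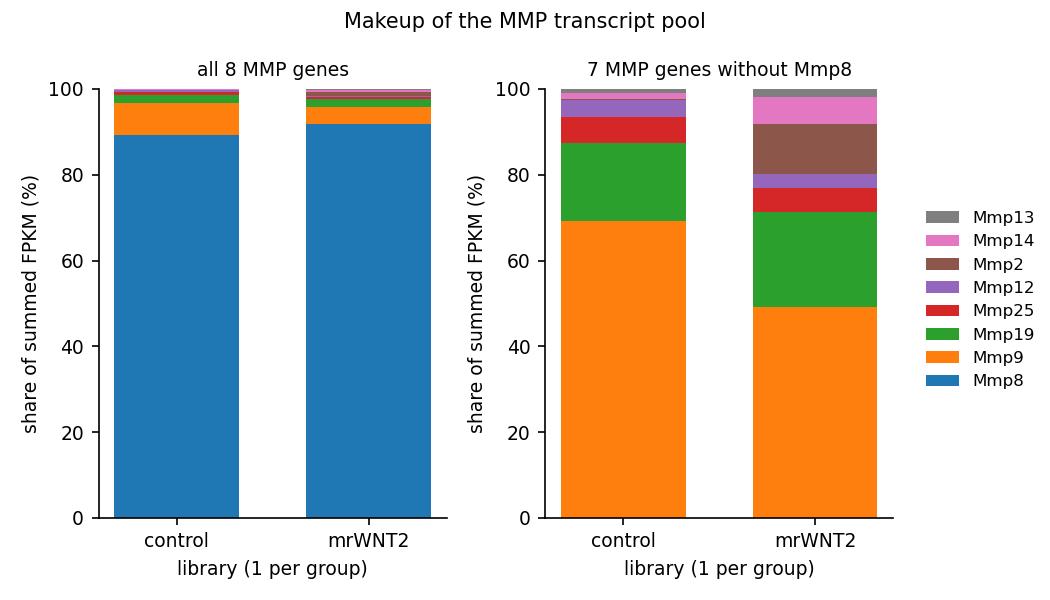
Share of the summed deposited FPKM (%) of MMP genes in each library, for all 8 genes (left) and for the 7 genes without Mmp8 (right). Mmp8 fills 89.2% and 91.8% of the left bars, and in the right bars Mmp9 goes from 69.2% to 49.1% while Mmp2 and Mmp14 widen.

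Mmp8, Mmp12 and Mmp13 lie in a cluster of 10 MMP genes that spans 427 kb of chromosome 9 (7272514 to 7699585). The cluster was transcribed in patches. In order along the chromosome, Mmp13 and Mmp12 were expressed, Mmp1b, Mmp1a and Mmp10 had 0 counts in both libraries, and Mmp3 had 0 and 2. Mmp8 and Mmp27 followed, and then Mmp20 and Mmp7, again with 0 counts in both. Of the expressed genes, Mmp12 was lower, Mmp13 and Mmp27 (1.22-fold, 1.04 to 1.45) were higher, and Mmp8 was nearly level. Mmp27, an MMP that is not among the members, starts 2911 bases past the end of Mmp8, and its 268 and 312 counts were 0.265% and 0.338% of those of Mmp8. Whether some of these reads came from Mmp8 transcripts was not tested.

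**Figure D4:**
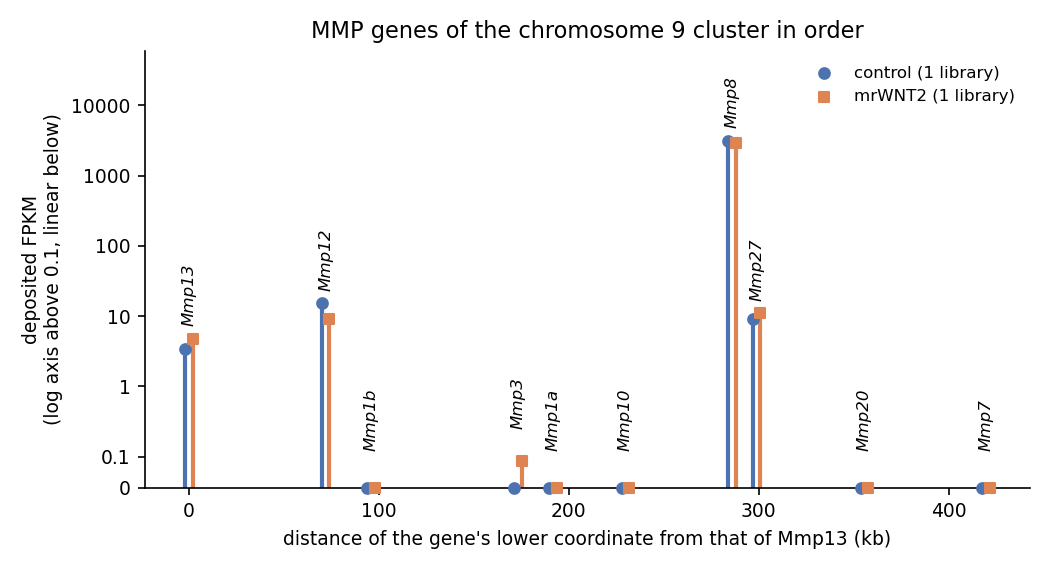
Deposited FPKM (log axis above 0.1, linear below) of the 10 MMP genes of the chromosome 9 cluster, by distance from Mmp13 in kb, in the control library (circles) and the mrWNT2 library (squares). Mmp8 exceeds every other gene of the cluster in both libraries, 5 genes stand at 0 in both, and Mmp12 alone among the expressed genes is lower by more than 1.5-fold.

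Of the other 17 genes of the family, 3 had a mean of at least 1 CPM. Timp3, which encodes the matrix-bound inhibitor, had 73 and 112 counts and was 1.61-fold higher (1.19 to 2.20). Mmp28 had 11 and 18 counts, 1.72-fold higher with an interval of 0.77 to 4.03, and was past the minimum only through mrWNT2. Mmp27 is given above. Mmp1a, Mmp1b, Mmp7, Mmp10, Mmp16, Mmp20, Mmp24 and Timp4 were at 0 counts throughout, a value that 0.224 CPM in control or 0.236 CPM in mrWNT2 could still give. Mmp23 had 17 counts in control and 5 in mrWNT2, and Mmp3, Mmp11, Mmp15, Mmp17 and Mmp21 had at most 4 in either library. By FPKM, Timp3 stood below Timp1 in control (0.678 and 2.30) and above it in mrWNT2 (1.07 and 0.263).

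The genes around the MMPs were followed in lists. Of all measured genes, 7.62% were higher by 1.5-fold or more and 7.02% lower. Proenzyme activation was covered by 14 genes of proprotein convertases, the plasminogen system and neutrophil serine proteases. Of the 14, 10 were measured and all 10 were within 1.5-fold (median log2 ratio -0.02), as were 10974 of all 12856 measured genes. Furin, a convertase known to activate MMP14, was at 367 and 424 CPM, and the urokinase gene Plau at 72.4 and 52.1 CPM (both picked after their values were seen). Of 13 genes of other protease inhibitors and MMP partners, 11 reached the minimum, with 2 higher by 1.5-fold or more and 0 lower (median 0.06). Serpine2, which encodes a serine protease inhibitor, was 3.23-fold higher (2.91 to 3.59), and Slpi, an inhibitor of neutrophil elastase, 1.60-fold higher (1.41 to 1.81). Reck, which encodes a membrane-anchored MMP inhibitor, had 210 and 175 counts with an interval that included equal levels.

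The ADAM and ADAMTS proteases are relatives of the MMPs that shed membrane proteins or cut matrix. Of 19 listed genes, 9 reached the minimum, with 2 higher and 1 lower by 1.5-fold or more (median 0.00). The shares over all measured genes were 7.62% and 7.02%. Adam9 was 1.56-fold higher (1.47 to 1.66), Adam17, which encodes the enzyme that releases TNF from the cell surface, 1.53-fold higher (1.44 to 1.62), and Adam19 1.59-fold lower (1.48 to 1.72). None of the measured genes differed as much as Mmp2 or Mmp14.

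Matrix proteins that MMPs cut were split. Of 22 listed genes, 14 reached the minimum, with 4 higher and 6 lower by 1.5-fold or more (median -0.29). Over all measured genes these shares were 7.62% and 7.02%. Both listed genes of type IV collagen, which gelatinases cut, were higher. Col4a1 went from 88 to 702 counts, 8.39-fold higher (6.71 to 10.6), and Col4a2 had 169 and 673, 4.19-fold higher (3.53 to 4.99). The fibronectin gene Fn1 and the laminin gene Lamc1 were 1.71-fold and 1.63-fold higher. The abundant lower gene was Spp1, which encodes osteopontin, with 5098 and 2196 counts (2.21-fold lower, 2.10 to 2.32). The other 5 lower genes were weak, with Col1a1 the highest at 12.7 CPM in control. Among them, the type I collagen gene Col1a2 had 66 and 15 counts (4.18-fold lower, 2.36 to 7.89) and the perlecan gene Hspg2 27 and 7 (3.67-fold lower, 1.56 to 9.98), the latter past the minimum only through control. The sign of this list's median depended on its weak genes, since it was 0.53 when a mean of 10 CPM was required.

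**Figure D5:**
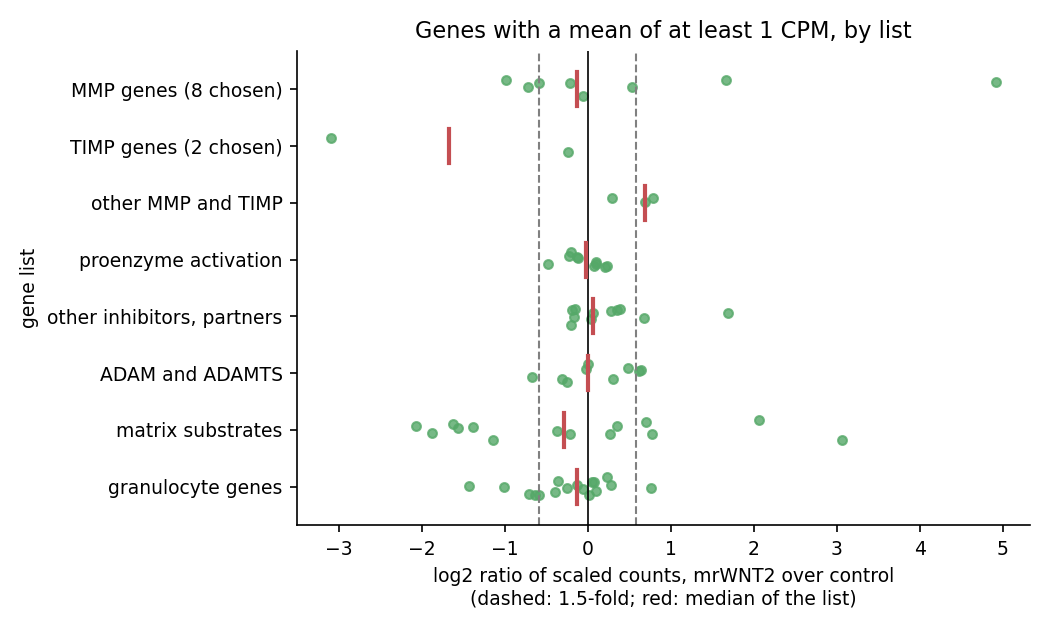
Log2 ratio of scaled counts, mrWNT2 over control, of each gene with a mean of at least 1 CPM (points) by list, with the list's median as a red bar and 1.5-fold as dashed lines. All 10 measured activation genes lie between the dashed lines, and 10974 of all 12856 measured genes were within 1.5-fold. Matrix substrates spread from -2.06 (Col1a2) to 3.07 (Col4a1).

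Markers of cell types that make MMPs moved as follows, beside 7.62% of all measured genes at least 1.5-fold higher and 7.02% lower. All 10 neutrophil markers were measured, 3 were at least 1.5-fold lower and 0 higher, and their summed level was 83314 CPM in control and 69276 CPM in mrWNT2. A list of 17 granulocyte genes held granule genes and others, such as the surface antigen gene Ly6g and the arginase gene Arg1. Of these, 5 were at least 1.5-fold lower and 1 higher (median -0.13). The lowest were Arg1 (2.70-fold) and Ly6g (2.0-fold), and the granule protein gene Ltf was 1.55-fold lower. The higher gene was Hp (1.70-fold), which encodes haptoglobin. Mmp9 and Mmp25 were lower alongside part of these genes, and Mmp8 was nearly level. Of 10 macrophage markers, 6 were lower by 1.5-fold or more and 2 higher (median log2 ratio -1.11), and Mmp12 was lower as well. Mrc1 alone went from 943 to 307 CPM, and the sum of the other 9 markers in the control library was 1198 CPM, and in the mrWNT2 library 1527 CPM. Csf1r (2.37-fold) and Adgre1 (1.80-fold) were the higher markers. Besides Mrc1, Cd5l (215 counts in control and 11 in mrWNT2) and Vsig4 (80 and 19) were at least 1.5-fold lower. Cd5l was past the minimum only through control (16.1 CPM, against 0.865 CPM in mrWNT2). Also lower by that size were C1qa (927 and 447 counts), C1qb (2023 and 768) and C1qc (1620 and 653).

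Stromal and endothelial cells are known sources of Mmp2, Mmp14 and Timp1. Of their 10 markers, 5 were measured, 0 of these were at least 1.5-fold higher and 2 lower, and the summed level was 64.1 CPM in control and 58.8 CPM in mrWNT2. Decorin (Dcn), below the minimum, had 2 and 15 counts, and Lum, Cdh5 and Kdr had at most 2 in either library. Pecam1, which myeloid cells also express, made up 41.6 CPM of the sum in control and 47.9 CPM in mrWNT2, and the other 9 markers summed to 22.5 and 10.9 CPM. Osteoclasts express Mmp9 and Mmp14. Of their 7 markers, 4 were measured, 2 were at least 1.5-fold higher and 1 lower, with a summed level of 170 CPM in control and 253 CPM in mrWNT2, while Calcr had 0 counts in both. Atp6v0d2 alone made up 142 CPM of that sum in control and 181 CPM in mrWNT2, and Acp5 24.2 and 66.8 CPM. The higher markers were Acp5 and Dcstamp, the latter with 26 and 40 counts (interval of mrWNT2 over control 0.96 to 2.76). The lower marker was Ctsk, with 28 and 16 counts (0.30 to 1.15). The intervals of Dcstamp and Ctsk included equal levels. The part of neutrophil, macrophage, stromal, endothelial and osteoclast RNA in these differences was not tested. Erythroid markers summed to 0.748 and 0.629 CPM, and lymphoid markers to 4.19 and 2.99 CPM. Monocyte markers were nearly level (2750 and 2705 CPM), dendritic markers summed to 37.5 and 34.5 CPM, and eosinophil, basophil and mast cell markers to 1092 and 1228 CPM. By summed FPKM, neutrophil markers were the highest list (97683 in control and 79685 in mrWNT2). Most of that sum came from S100a9 (49131 and 41657) and S100a8 (22960 and 17928). Eosinophil, basophil and mast cell markers (989 and 1082), macrophage markers (822 and 726) and monocyte markers (634 and 659) followed, under the myeloid label of the cells.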

How the data were processed

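RNA-seq libraries of 1 vehicle control and 1 mrWNT2 culture were used. TRIzol was used for RNA and the NEBNext Ultra kit for libraries, per the labels' protocols. Tools named in the submitters' processing notes are HISAT2 2.0.5, featureCounts 1.5.0-p3, fastp, CASAVA 1.8 and DESeq2 1.20.0. The build they name is GRCm38, or mm10. The authors deposited raw counts per gene and FPKM per gene, with 1 column per library. Over 10078 genes with more than 50 counts in each library, log2 ratios from the deposited FPKM and from counts scaled by DESeq2 size factors differed by at most 1.2e-08. Coordinates of all 10 members equal those of GENCODE (GRCm38).

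Counts were scaled with TMM factors in edgeR 4.0.16 (R 4.3.3), and no pseudocount was added to counts above 0. With 1 library per group no test was run and no p-value is given. For a ratio, a count of 0 was replaced by 3 counts, and none was taken where the other count was at most 3. Ratios formed in this way enter the shares, median and percentiles of all measured genes. Without molecular identifiers, copies made by amplification count as reads and can narrow the intervals. The minimum for a measured gene was a mean of 1 CPM, and 1.5-fold was the size counted. The members and the 6 pathway and 9 marker lists were chosen with earlier results of these data known. Some genes, such as Lcn2 and Elane, stand in more than 1 list, and 1 gene first listed among the other inhibitors and partners is not reported here. Named were all members, undetected family genes, and up to 2 highest and 2 lowest genes per pathway list past 1.5-fold. Others named as examples were chosen after their values were seen. Alternatives were DESeq2 1.42.0 size factors, library totals, FPKM, other minimums and a fold of 2.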

Additional observations from a re-analysis of the deposited data

How the results depend on the processing

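Each of the 10 members kept its direction under DESeq2 size factors, library totals and FPKM with a pseudocount of 0.1 or 1. Size factors and totals moved log2 ratios by at most 0.034 and 0.022. A pseudocount of 1 moved Mmp2 to 3.96, Mmp14 to 1.47 and Timp1 to -1.39. Members at least 1.5-fold lower numbered 4, but with a fold of 2 there was 1, and 7 lay between. At that fold, 2 were lower under DESeq2 size factors and under FPKM (pseudocount 0.1), where Mmp9 joined Timp1 (an alternative chosen after seeing the data). Scaling by totals took Mmp25 out of the lower members. The median of ADAM and ADAMTS genes was 0.15 with no minimum. That of matrix substrates was 0.53 with a minimum mean of 10 CPM and -0.93 with no minimum, where fewer or more weak genes entered. The log2 change of MMP counts per count of Timp1 and Timp2 was 0.15. It turned to -0.21 without Mmp8, which holds most of the pool's counts, and was not computed with Timp3. Depth limits Timp1 (3 counts in mrWNT2) and Mmp28. No paired analysis was possible because each group holds 1 library, and for the same reason no library could be left out.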
